A study of Drosophila melanogaster with 3 samples.

Results

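The sites described here are 500 chromatin immunoprecipitation sequencing (ChIP-seq) peaks of the Drosophila melanogaster protein CG8159 whose summits lay just downstream of the start of a protein-coding gene. They were taken from the 10239 summits of the authors' list made with the irreproducible discovery rate (IDR) method, a filter for peaks that hold a like rank in different replicates. A summit was counted when it lay 0 to 500 bp downstream, in the direction of transcription, of its nearest protein-coding start site. Start sites with an opposite-strand start site of another protein-coding gene within 500 bp upstream, called divergent, were left out. The 500 summits made up 4.88% of the list (95% Wilson interval 4.48 to 5.32). They were assigned to 487 start sites of 459 genes, which were 3.27% of the 14910 non-divergent start sites and 3.29% of the 13945 protein-coding genes on the chromosome arms. All shares with Wilson intervals below cover counting error only.

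Whole pupae aged 24 hours, males and females pooled, came from a single transgenic line that expresses CG8159-eGFP, in which the tag GFP is fused to the C terminus of CG8159. The sample description states that GFP was the target of the antibody, while the antibody label names CG8159. Sonicated chromatin from 3 biological replicates formed 1 group, and all peak lists were called against the same 1 control alignment. No second genotype, age or treatment was analysed here, so values were compared between sets of sites and between replicates only. Whole animals mix all tissues, and a single line cannot separate the protein from its tag. With 3 replicates the exact 2-sided sign-flip permutation test can reach no p below 0.25, so no difference between site sets could pass a threshold of 0.05. Instead, each difference is given with the SD over replicates and the number of replicates that share its direction.

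The stretch downstream of a start site holds the 5′ untranslated region (UTR), often the beginning of the first intron, and, in genes with short leaders, coding sequence. In flies this stretch carries core promoter elements that position RNA polymerase II, and polymerase commonly pauses there before elongation. Introns close to the start site can also hold enhancers. The nearest comparison set is the 1722 IDR summits 1 to 500 bp upstream of the same kind of start site, which were 16.8% of the list (16.1 to 17.6). Summits downstream were therefore 22.5% (20.8 to 24.3) of all summits within 500 bp of a non-divergent start site.

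The sequences under 6 of the downstream summits are shown because base composition differed widely among the sites. They belong to the 4 intronic sites among the 12 of highest signal and to the intronic sites of RpL37A and sqh. Each is 41 bp of the dm6 reference centred on the summit, written 5′ to 3′ on the strand of the gene, with runs of 6 or more A or T bases in capitals. None of the 41 bp lies in a UTR.
hng3, chr3L:738872-738912, minus strand: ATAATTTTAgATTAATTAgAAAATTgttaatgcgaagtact
Cat, chr3L:18822886-18822926, plus strand: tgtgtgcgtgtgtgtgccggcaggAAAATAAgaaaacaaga
CG43116, chr3R:25996596-25996636, minus strand: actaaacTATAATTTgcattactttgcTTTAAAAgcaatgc
CG31612, chr2L:21794939-21794979, minus strand: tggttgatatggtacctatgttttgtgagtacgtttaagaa
RpL37A, chr2L:5071360-5071400, plus strand: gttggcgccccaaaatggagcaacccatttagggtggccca
sqh, chrX:6224355-6224395, minus strand: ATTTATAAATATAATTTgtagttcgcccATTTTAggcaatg
In these windows A and T made up 80.5% of the bases at hng3 and 73.2% at sqh, against 41.5% at RpL37A and 53.7% at Cat. The CG31612 and RpL37A windows hold no run of 6. The Cat window opens with alternating T and G interrupted by a C, which reads mostly as CA repeats on the other strand.

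The strongest downstream sites ranked high in every replicate. The summit of highest signal lay 86 bp downstream of a start site of PNPase, which encodes the RNA-degrading enzyme polynucleotide phosphorylase of mitochondria. Its peak (chr3R:31404463-31404869) had an IDR signal of 10306 in the authors' units and ranked 31, 11 and 18 of 30000 in replicates 1, 2 and 3. This summit was the only one tied between 2 start sites: it lay equally far, 86 bp, upstream of another PNPase start site. Next came ph-p, a subunit of the Polycomb repressive complex PRC1, with a signal of 6967, ranks of 87, 58 and 52, and a summit 444 bp into the gene. The summit of CG6785, with a signal of 6844 at 309 bp, ranked 40, 79 and 122.

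Cat encodes catalase, which breaks down hydrogen peroxide. Its summit lay 302 bp downstream, in an intron, with a signal of 4635 and ranks of 144, 130 and 462, so that replicate 3 placed it well below the others. CLIP-190, a protein that binds microtubule ends, was placed likewise (ranks 406, 334 and 655, summit at 325 bp, signal 3250). By contrast hng3 ranked 176, 174 and 174 and CG10413 ranked 189, 165 and 164. The other 5 of the 12 strongest were CG32772, the glutathione S-transferase gene GstE13, CG43116, the septin gene pnut and CG31612, with signals of 4149 to 5513 and ranks between 104 and 296. The 3 weakest downstream sites were at sdt, Hnf4 and Tis11, with IDR signals of 248, 246 and 246. Their matching peaks ranked between 8433 and 20536, and replicate 2 held no matching summit for Hnf4.

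**Figure D1:**
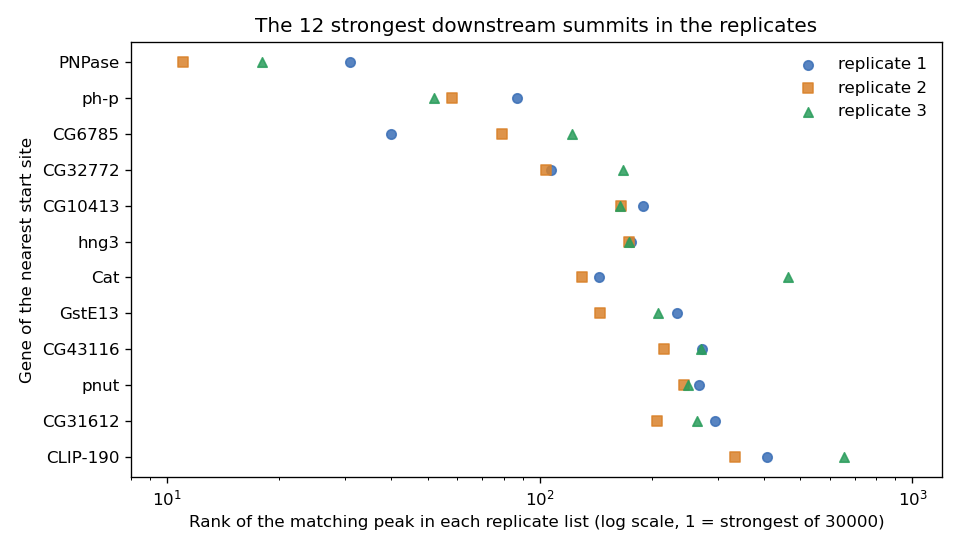
Ranks of the 12 strongest downstream summits in each replicate list, where rank 1 is the strongest of 30000 peaks and the axis is logarithmic. PNPase ranked 11 to 31 in all 3 replicates, and Cat and CLIP-190 had their lowest placing in replicate 3. The sites were chosen by IDR signal and by overlap in all 3 replicates, so high ranks are partly built in.

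Summits were most frequent close to the start site. The median distance was 125 bp (quartiles 47 and 315), with 138 summits at 0 to 50 bp, 78 at 51 to 100 bp, 65 in the next 50 bp and 35 in the 50 bp after that. Beyond 200 bp, each 50-bp interval held 20 to 38. Because the rule limits the distance, these counts are a description. The same rule on the 10239 strongest peaks of each replicate found 567, 530 and 420 downstream summits, or 5.54%, 5.18% and 4.10% of each list (4.94% ± 0.747, SD, n = 3), with median distances of 144, 106 and 147 bp (132 ± 22.9, SD, n = 3). Replicate 3 had the fewest, and the interval nearest the start site held 131, 163 and 92 summits. At the outer edge, His3.3B (500 bp, signal 341) and Syp (499 bp, 396) lay just inside the limit, and Sur-8 (501 bp, 1116) and CG42514 (502 bp, 422) just outside. At the start site itself, RpL24 (0 bp, 768) and Lar (0 bp, 454) lay inside, and eEF5 and chic, both 2 bp upstream with signals of 650 and 368, lay outside.

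**Figure D2:**
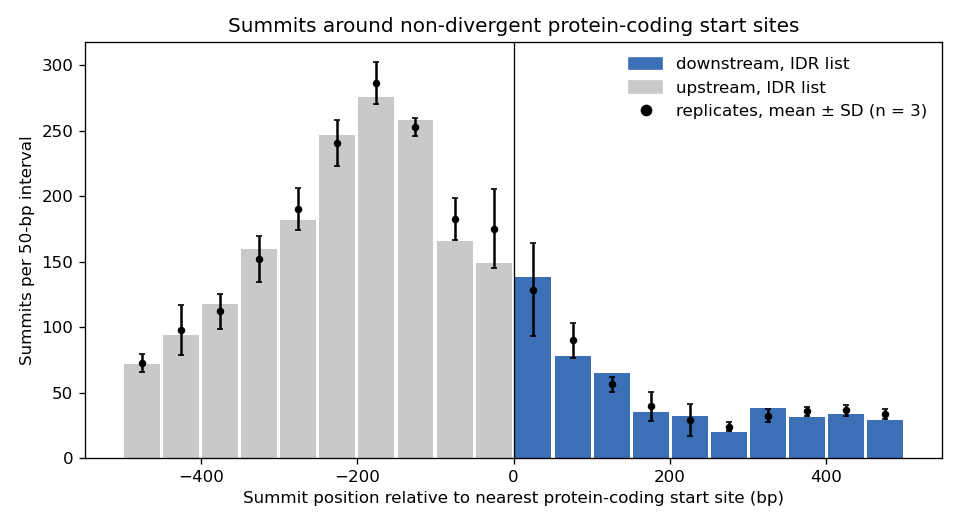
Number of summits in 50-bp intervals around non-divergent protein-coding start sites, with downstream at positive positions. Bars give the IDR list and points the mean ± SD of 3 replicates: downstream counts fall away from 138 in the interval at the start site, while upstream counts reach 276 at 151 to 200 bp.

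Summits close to the start site were also the least securely placed on its downstream side. For each member the nearest summit within 100 bp was looked up in every replicate list. It was found for 477, 468 and 463 of the 500 in replicates 1, 2 and 3, at a median of 16, 17 and 13 bp from the IDR summit. In 35, 49 and 52 cases the replicate's own summit lay upstream. In all, 325 members (65%, 60.7 to 69.1) were downstream in all 3 replicates, 118 in 2, 46 in 1 and 11 in none. A member without a match in a replicate was counted there as not downstream. Of the members at 0 to 50 bp, 51 of 138 (37.0%, 29.4 to 45.3) were downstream in all 3, compared with 133 of 178 (74.7%) at 51 to 200 bp and 141 of 184 (76.6%) at over 200 bp. The downstream label is thus least certain for the members at 0 to 50 bp. Because the class ends at the start site, small shifts carry these members across it most readily, so this order is a description.

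Downstream summits were weaker than upstream ones. Their median IDR signal was 389 (quartiles 298 and 694, range 246 to 10306), against 578 (355 and 1269) upstream and 526 in the whole list. Within each replicate's own list the median downstream summit stood at the 33.2nd, 34.7th and 33.8th percentile of signal, where 100 is strongest, against the 54.3rd, 53.0th and 55.1st upstream. The difference was -20.2 ± 1.65 percentile points (SD, n = 3), lower in 3 of 3 replicates (exact sign-flip permutation p = 0.25, the smallest possible). Among the strongest 5119 peaks of each replicate it was -11.7 ± 1.35. Of the members, 330 (66.0%, 61.7 to 70) were overlapped by a peak among the 10239 strongest of all 3 replicates, 120 by those of 2, 48 by 1 and 2 by none. The share was 79.8% (77.9 to 81.7) upstream and 78.3% over the whole list. Per replicate, 85.2% ± 4.01 of downstream and 91.5% ± 0.762 of upstream IDR peaks were overlapped (SD, n = 3). Overlap followed strength, with 99 of the strongest 100 members overlapped in all 3 replicates and 11 of the weakest 100. Overlap was itself counted among the strongest peaks of the libraries behind the IDR list, so this order is partly built in. Where members matched a peak in both of 2 replicates, signals on the log2 scale correlated with Pearson's r of 0.862 to 0.885 over 436 to 448 sites, as a description across sites that share libraries.

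Most downstream summits lay in 5′ UTRs and few in coding sequence. Each summit was given 1 annotation over all transcripts, taking 5′ UTR before coding sequence, then 3′ UTR, then any other exon, then intron. By that order 332 (66.4%, 62.1 to 70.4) were in 5′ UTR, 144 (28.8%, 25 to 32.9) in intron, 20 (4%, 2.60 to 6.10) in coding sequence, 2 in other exons, 1 in 3′ UTR and 1 outside genes. Over the whole IDR list, coding sequence held 0.43% of summits. Of all bases 0 to 500 bp downstream of non-divergent start sites, 39.2% were 5′ UTR, 22.5% intron and 36.2% coding sequence. The coding share of downstream summits in the replicates (3.09% ± 0.683) differed from that of these bases by -33.1 percentage points ± 0.683 (SD, n = 3; lower in 3 of 3 replicates, exact sign-flip permutation p = 0.25). Against bases of all start sites at the members' own distances, the difference in coding share was -26.4 ± 0.909.

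The start sites that hold a member were themselves poor in coding sequence. At these 487 start sites, coding sequence made up 9.71% of the 0 to 500 bp, intron 31.4% and 5′ UTR 57.4%. Measured against the bases of each replicate's own bound start sites, the difference in coding share was -7.45 percentage points ± 0.680, lower in 3 of 3 replicates (exact sign-flip permutation p = 0.25). The intron share exceeded that of all downstream bases by 8.57 ± 3.12 points in 3 of 3 replicates (exact sign-flip permutation p = 0.25), but within 250 bp of the start site the difference was -0.131. Against the bound start sites' own bases it was -1.13 ± 2.91, lower in 1 of 3 replicates (exact sign-flip permutation p = 1), and 0.553 without replicate 2. It was -14.6 ± 2.59 within 250 bp of the start site and -4.66 ± 1.85 with all 30000 peaks, but 7.33 among summits more than 50 bp from the start site and 8.62 among the strongest 5119 peaks, so it had no settled direction.

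**Figure D3:**
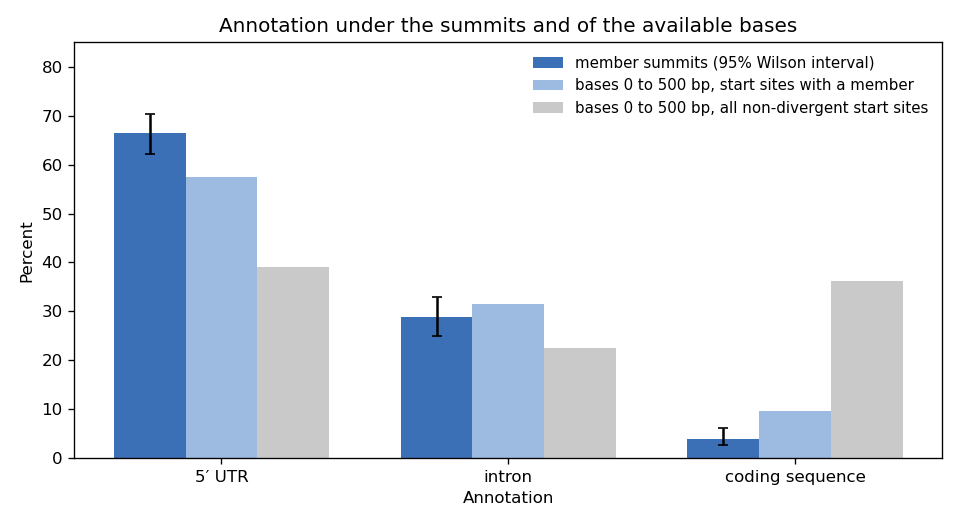
Percent of the 500 downstream summits in 5′ UTR, intron and coding sequence, with 95% Wilson intervals, beside the same percent of bases 0 to 500 bp downstream at start sites that hold a member and at all non-divergent start sites. Coding sequence held 4% of summits, 9.71% of bases at the members' start sites and 36.2% of bases at all start sites.

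Among the 20 members in coding sequence, those named here were picked after their values were seen. The strongest were in be (signal 1187, 445 bp, ranks 1572, 2761 and 3083) and in AGO2, which encodes the Argonaute protein of RNA interference (1024, 357 bp, ranks 1949, 2912 and 3504). Coding summits also fell in Sod1, a superoxide dismutase (443), and in the ribosomal protein genes RpS29 (442) and RpS3 (299). The median signal of the 20 was 355, and 12 had an overlapping peak among the strongest of all 3 replicates.

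Intronic members were richer in A and T than 5′ UTR members, and their median signal was higher at 0 to 200 bp but not at over 200 bp. A and T were counted in a summit window, the summit base with 50 bp to each side. Median IDR signal was 506 in introns and 361 in 5′ UTRs, and 77.1% (69.6 to 83.2) of the intronic peaks were overlapped in all 3 replicates, against 61.1% (55.8 to 66.2) of those in 5′ UTRs. At 0 to 200 bp the median signal was 600 in introns (32 sites) and 351 in 5′ UTRs (273 sites). At over 200 bp it was 429 in introns (112 sites) and 452 in 5′ UTRs (59 sites), which turns the order. Within the replicate lists the median intronic summit stood 19.0 ± 2.40 percentile points above the 5′ UTR one (SD, n = 3; 3 of 3 replicates, exact sign-flip permutation p = 0.25). With all 30000 peaks this difference was 2.57 ± 1.20, and among the strongest 5119 it was -1.41, which turns its direction. A and T made up 64.5% ± 0.640 of the summit window at intronic members and 57.6% ± 0.834 at 5′ UTR members of the replicates, a difference of 6.91 ± 1.41 points in 3 of 3 replicates (exact sign-flip permutation p = 0.25). In the IDR list the intronic value was alike at 0 to 200 bp (64.8%, 32 sites) and over 200 bp (64.6%, 112 sites), while 5′ UTR members had 56.9% at 0 to 200 bp (273 sites) and 60.4% at over 200 bp (59 sites). Start sites at large had the same order: windows of the same length at every 25 bp downstream of all non-divergent start sites averaged 61.0% in introns, 56.6% in 5′ UTRs and 48.4% in coding sequence.

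Downstream summits held less A and T than upstream ones. The downstream windows held 59.5% A or T (SD 9.85 over 500 sites), against 66.8% upstream and 68.2% over the list. Replicates gave 59.7%, 59.1% and 60.4% downstream, against 66.5%, 65.6% and 67.0% upstream, a difference of -6.64 ± 0.190 percentage points (SD, n = 3; lower in 3 of 3, exact sign-flip permutation p = 0.25). The replicate values of both site sets did not overlap. Among IDR sites overlapped in all 3 replicates the means were 60.8% downstream and 67.6% upstream, and among sites more than 50 bp from the start site they were 61.2% and 67.9%. Of the downstream members, 99 (19.8%) had 70% A or T or more, against 809 (47.0%) upstream. Fewer than 55% A or T were found at 178 members (35.6%), against 276 upstream sites (16%).

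The windows were also set against their own flanks, windows of the same length centred 200 bp to each side. Flanks were alike, at 57.1% A or T around downstream members and 57.7% around upstream sites. The summit exceeded its flanks by 2.38 points downstream and by 9.14 points upstream. In the replicates the downstream excess was 2.33 ± 0.691 (3 of 3), and its difference from the upstream excess was -6.26 ± 0.260 points (SD, n = 3; lower in 3 of 3, exact sign-flip permutation p = 0.25). The downstream excess was 7.49 among the strongest 5119 peaks of each replicate, 0.263 ± 0.766 within 250 bp of the start site, and -0.149 with all 30000 peaks, which turns its direction.

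The composition of downstream summits changed with distance. At 0 to 50 bp the mean was 55% A or T, and its difference from the flanks was -3.68 points. At 51 to 200 bp it was 59.6%, or 3.36 above, and at over 200 bp 62.8%, or 5.98 above. The outermost class exceeded the innermost by 6.91 ± 1.24 points in the replicates (SD, n = 3; 3 of 3, exact sign-flip permutation p = 0.25). Upstream summits within 50 bp of the start site had 55.1%, close to the downstream value, and those at 51 to 500 bp had 67.9%. Over all 14909 non-divergent start sites with full windows, A and T made up 56.4% at 25 bp, 56.5% at 100 bp and 54.0% at 300 bp downstream. All start sites were thus lower in A and T at 300 bp than at 25 bp, while the member windows over 200 bp were higher than those at 0 to 50 bp. The 487 start sites that hold a member did not fall in this way. There A and T made up 55.2% at 25 bp, 58.4% at 100 bp and 56.4% at 300 bp downstream, and some of these windows cover member summits.

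**Figure D4:**
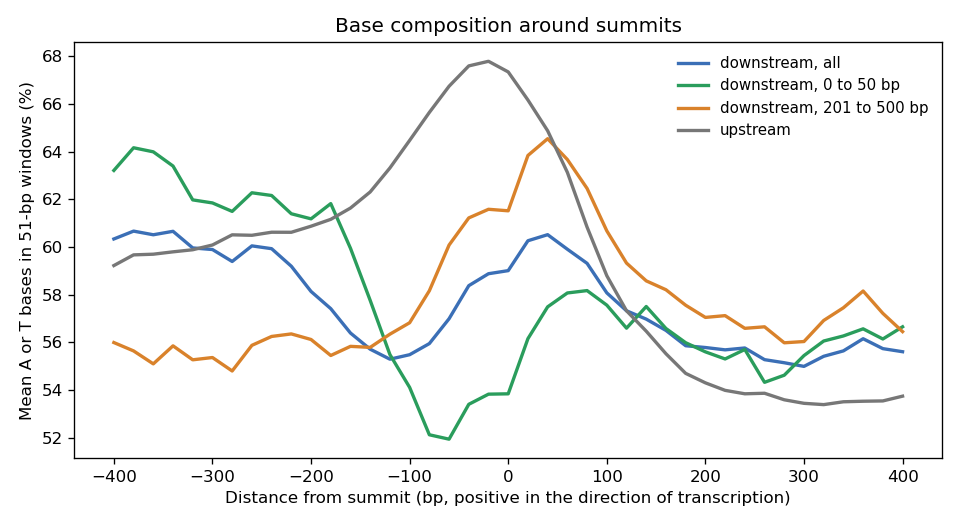
Mean percent of A or T bases in 51-bp windows around the summits, with positive distances in the direction of transcription. At the summit, downstream sites at over 200 bp stand at 61.5%, those at 0 to 50 bp at 53.8% and upstream sites at 67.3%, while the lowest point of the 0 to 50 bp curve near the summit is 51.9% at -60 bp and the highest point of the over 200 bp curve is 64.5% at 40 bp.

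Stronger members were richer in A and T. The strongest 100 averaged 65.3%, 8.95 points above their flanks, and the weakest 100 averaged 56.6%, with a difference from the flanks of -1.15. Across the 500 members, log2 signal and A or T percent had a Pearson's r of 0.36 and a Spearman's rho of 0.34, and signal and distance had 0.22 and 0.25. Upstream summits shared these directions, with 0.30 and 0.31 for A or T percent and 0.15 and 0.19 for distance. These are descriptions across sites of the same libraries. Strong exceptions existed, among them Cat (51.5% A or T), CLIP-190 (53.5%) and RpL37A (46.5%), against 82.2% at hng3 and 81.2% at ph-p.

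**Figure D5:**
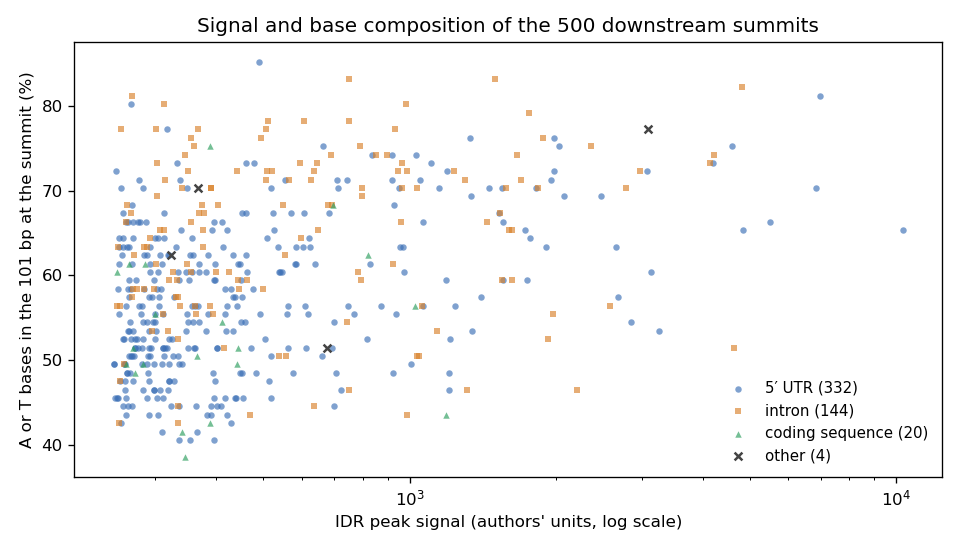
IDR signal on a log axis against the percent of A or T bases in the summit window of each of the 500 downstream members, by annotation. The members spread between 38.6% and 85.1%, intronic members centre on a median of 65.8%, and 5′ UTR members on 56.4%.

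Of 13 short motifs searched on both strands of the summit window, runs of A exceeded their share in the flanks by the widest margin. AAAAAAA or its complement was in 19.2% of member windows (16 to 22.9), against 11.3% of flanks centred 300 bp to each side, 15.4% of upstream summits and 8.03% of windows centred 150 bp downstream of all non-divergent start sites. The run was on the gene's strand as A in 54 members and as T in 45. In 5′ UTRs these counts were 42 and 29 of 332, and in introns 12 and 14 of 144. The start sites at large leaned the same way, with A runs in 4.82% and T runs in 3.47%.

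Motifs made of A and T that were frequent upstream were less frequent downstream. TATAAA was in 12.4% of member windows, 13.1% of their flanks and 26.2% of upstream summits, TTATTTA in 7.60%, 6.40% and 13.1%, TAATTA in 6.40%, 4.30% and 10.3%, and ATATATA in 5.20%, 4.30% and 9.58%. CACACAC had the opposite order, with 7.20% in members (5.25 to 9.81), 8.60% in their flanks, 2.56% upstream and 4.65% at all start sites, so members did not exceed their own flanks. GAGAGAG, the element bound by GAGA factor, was in 3.20% of members, 5.10% of flanks and 2.79% of upstream summits. TCAGTT, a form of the initiator that lies at the start site itself, was in 14.5% of members at 0 to 50 bp and 5.43% at over 200 bp. Windows at 0 to 50 bp cover their start site and those at over 200 bp do not. Position alone can thus set this order, and no share matched for position is given. The DNA replication-related element TATCGATA was in 0.40% of members and 1.20% of flanks, and the core promoter motif GGTCACAC in 1.00% and 0.90%. The E-box CACGTG was in 1.00% of members and 1.30% of flanks, CAGCTG in 4% and 4.90%, and CAGGTA, bound by Zelda in embryos, in 1.00% and 2.70%. A match is a string of letters only, and a missing match says nothing of any factor.

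The same bases led when all sequences of 6 bases were ranked on the 288 members of arms 2L, 2R and 3L by their excess over the flanks. The 5 leading sequences were then counted on the 212 members of 3R and X. There ACAAAA was in 32.1% of summit windows (26.2 to 38.6), 21.0% of flanks and 25% of upstream summits. AAAAAA had 34.0%, 23.1% and 32.4%, AAAAAC had 32.5%, 25.2% and 21.8%, GAAAAA had 29.2%, 18.2% and 19.7%, and AAAAAG had 26.9%, 17.0% and 20.2%. These sequences overlap one another, so the 5 shares are not separate observations.

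Downstream summits were found mostly at genes with several start sites. Genes with a single annotated start site held 148 members (29.6%) and 41.7% of upstream summits, while 50.3% of non-divergent start sites belong to such genes. At 295 members (59.0%) the start site was the outermost of its gene, against 65.7% upstream. In 85 cases (17.0%) the summit also lay up to 500 bp upstream of another start site of the same gene, and in 3 of another gene. The start sites of 45 members (9%) carried an upstream summit too, and 13 start sites held 2 members each. A noncoding start site lay within 100 bp of 6 members.

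InR, the insulin receptor, was the only gene with more than 2 downstream summits. One start site carried summits at 207 bp (signal 310, ranks 10159, 8158 and 8636) and 406 bp (signal 636, ranks 5524, 4970 and 3690). Other InR start sites carried summits at 1 bp (304, ranks 11781, 5021 and 11267) and 457 bp (318). For the summit at 457 bp, replicate 1 had no matching summit and replicates 2 and 3 placed it at ranks 24324 and 21217. Its interval was nevertheless overlapped by a peak among the 10239 strongest in all 3 replicates, as were those at 207 and 406 bp, while the interval of the site at 1 bp was overlapped in 1. The site at 406 bp, in an intron with 72.3% A or T, had the highest rank of the 4 in all 3 replicates, and the site at 207 bp, in 5′ UTR, had 41.6% A or T.

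The X chromosome held more members for its start sites than the long autosomal arms. X had 111 members, or 42.4 per 1000 non-divergent start sites, against 29.3 to 34.7 on 2L, 2R, 3L and 3R, and the small arm 4 had none at 125 start sites. Set against all IDR summits, X held 22.2% of members and 19.0% of the list, and 2R held 21.6% of members and 16.8% of the list, so by that measure the excess was larger on 2R. In the replicates the density was 44.2 ± 3.85 on X and 32 ± 5.60 on the long autosomal arms, a difference of 7.84, 14.7 and 14.3 (12.3 ± 3.83, SD, n = 3; 3 of 3 replicates, exact sign-flip permutation p = 0.25). The pools mixed males and females, and the number of X copies per pool and the control signal on X were not tested.

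Gene groups were counted against the 3.29% of protein-coding genes that had a downstream summit. That share does not apply to the upstream counts below, as upstream summits numbered 1722 against 500 downstream. The share of all genes with an upstream summit is not given here. Of 92 cytosolic ribosomal protein genes, 16 had one (17.4%, 11.0 to 26.4) and 24 had an upstream summit, while none of 73 mitochondrial ribosomal protein genes had a downstream summit and 2 had an upstream one. Only genes with a non-divergent start site could be counted, which were 60 of the 92 cytosolic and 20 of the 73 mitochondrial genes. Over these, the share was 26.7% (17.1 to 39) for cytosolic genes and 0 for mitochondrial genes with an upper Wilson limit of 16.1%, beside 4.24% of the 10832 protein-coding genes that could be counted. The ribosomal sites lay close in, with a median distance of 29 bp and 11 of 16 within 50 bp, and 13 were overlapped in all 3 replicates. Overlap does not show on which side of the start site a replicate's own summit lay. Of all members at 0 to 50 bp, 51 of 138 (37.0%) were downstream in all 3 replicates, so the downstream label of these close sites is uncertain. Most were of modest signal, with a median of 397. RpL37A was the exception at 2207, with a summit 380 bp into the gene and ranks of 566, 1125 and 1557. RpL24 followed at 768 (ranks 4333, 3156 and 3159) and RpS10b at 698 (3678, 3726 and 3829). Their A or T content ran between 44.6% and 70.3%, with a median of 55.4%.

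Of 15 genes of the ecdysone response, the steroid cascade that drives metamorphosis, 4 had a downstream summit (26.7%, 10.9 to 52.0) and 8 an upstream one. No share over all genes is given for the upstream count. Eip75B, a nuclear receptor induced by ecdysone, stood out with a signal of 3075 at 17 bp and ranks of 456, 460 and 614. Eip63E (353), Eip93F (270) and the ecdysone receptor gene EcR (268) were weak, and the EcR site at 3 bp was overlapped in 1 replicate only, with ranks of 12099, 6285 and 12043. Among 23 Polycomb and Trithorax genes, 3 had a site: ph-p, the chromatin remodeller kis (426) and Su(z)2 (369). Among 15 insulator and architectural genes, Trl, which encodes GAGA factor, had a signal of 1555 with ranks of 1616, 1633 and 1474, and pita had 301.

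Signalling and growth genes were represented by mostly weak sites. Downstream summits were found at 5 of 34 signalling genes, with InR followed by the Ets repressor aop (336) and the Fos gene kay (314). They were found at 3 of 12 insulin and TOR genes, again InR, with the kinase sgg (413) and the translational repressor Thor (263), and at 1 of 20 Notch genes, the coactivator mam (741). Cell cycle genes had 2 of 15, Dp at 1235 and its partner E2f1 at 253. Cell death had 1 of 11, the caspase inhibitor Diap1 (494). Cytoskeleton and adhesion had 5 of 21, led by sqh, the regulatory light chain of nonmuscle myosin, at 1300 with ranks of 2184, 1880 and 1711, then the integrin if (313) and Fas3 (309). Disc patterning had 1 of 16, en at 255, which no replicate's strongest peaks overlapped. Those of 1 replicate overlapped Thor and E2f1, and those of 2 overlapped aop, kay and Fas3. Circadian genes had 1 of 9, Pdp1 (283), and oxidative phosphorylation had 1 of 84, ATPsynC (282), both overlapped in 2. Shares of genes that could be counted follow, beside 4.24% over all such genes. They were 17.9% for signalling (7.88 to 35.6), 33.3% for insulin and TOR (12.1 to 64.6) and 26.3% for cytoskeleton and adhesion (11.8 to 48.8). Cell cycle had 16.7% (4.70 to 44.8), cell death 12.5% (2.24 to 47.1), circadian 11.1% (1.99 to 43.5) and disc patterning 6.25% (1.11 to 28.3). Notch had 5% (0.888 to 23.6) and oxidative phosphorylation 1.96% (0.347 to 10.3).

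No downstream summit was found at Hox, proneural and neuronal, heat shock, proteasome, cuticle or chemosensory genes. Of these, 8 of 8 Hox, 13 of 13 proneural and neuronal, 23 of 25 heat shock, 29 of 48 proteasome, 69 of 70 cuticle and 208 of 230 chemosensory genes have a non-divergent start site. The upper Wilson limits over those were 32.4% for Hox, 22.8% for proneural and neuronal, 14.3% for heat shock, 11.7% for proteasome, 5.27% for cuticle and 1.81% for chemosensory genes. Of these 6 limits, the chemosensory one lies below the 4.24% of all genes that could be counted. Lists of this size were not tested, and the 20 lists share genes such as InR.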

How the data were processed

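CG8159-eGFP ChIP-seq of 3 pupal replicates was analysed from peak lists on dm6. Per the deposited file lists, each replicate's list was called against 1 shared control alignment, and the IDR list was derived from these and a list called on pooled replicates. The caller, aligner and read filters were not given in the sources used here. Depth is unknown, as no read totals were at hand. The deposited signal is the authors' own value per peak, of differing scale between lists, and was used only for ranks and levels within a list and, on the log2 scale, for correlations. The deposited −log10 q-value was at its maximum of 4.21 in 65.2% of members and was not used for ranking. The summit was the peak start plus the deposited summit offset. Replicate lists of 30000 peaks were reduced to the 10239 strongest.

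Start sites came from Ensembl release 115 on the release 6 assembly. Python 3.11.15, numpy 2.4.6, pandas 2.3.3 and scipy 1.17.1 were used. On made-up inputs, only the assignment of summits to isolated start sites, the sign-flip test and the reverse complement were tested. Differences were tested with the exact 2-sided sign-flip permutation test over replicates, 15 in all. Because the smallest p is 0.25, adjustment over the 15 could pass none. Members and lists were chosen with earlier results of these data known. Genes named were the 12 strongest members overlapped in all 3 replicates, the 3 weakest, those at the edges of the distance rule, genes with 3 or more members, up to 3 per list, and others where said. Symbols Dl, nct, Tor, dbt and calypso on the lists were not matched and were not used here. Comparisons of introns with 5′ UTRs, of distance classes, of X with autosomes, of overlap between site sets, of the excess over flanks, with bases at the same start sites or distances, and of lists over genes that could be counted were chosen after seeing the data. The pooled list itself was not used here.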

Additional observations from a re-analysis of the deposited data

How the results depend on the processing

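Across alternatives, 154 values of the main results kept their direction, or, where they have no test, stayed within the replicate SD, the Wilson interval or 1.5 times the count, 15 moved and 6 reversed. Values that kept their direction still differed in size: the downstream minus upstream rank was -11.7 with the 5119 strongest peaks, against -20.2 as reported. A distance limit of 250 bp gave a median position of 69 bp in the IDR list and 73.3 bp in the replicates, a replicate share of 3.36%, and an intron share minus that of all bases of -0.131. Among the IDR peaks of highest signal (50%), 167 members, 96.4% overlap and a median position of 179 bp were found, and 330 members were overlapped in all 3 replicates. Replicate lists of the 5119 strongest peaks gave a share of 3.49%, a position of 194 bp, 28.6% overlap, an intron share minus the same start sites of 8.62 and an intronic minus 5′ UTR rank of -1.41. All 30000 peaks gave 5.94%, 96.0% overlap and an A or T excess over flanks of -0.149. Over 50 bp from the start site, a setting chosen after seeing the data, intron minus the same start sites was 7.33. Leaving out each replicate gave overlaps of 71.6% to 78.0% and intron minus the same start sites of -2.0 to 0.553. The causes were not tested. Of motif shares, 77 stayed and 27 moved. No paired analysis was possible because the samples form 1 group; differences between site sets were taken within each replicate.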

Other observations

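Enzymes of fatty acid beta-oxidation, the mitochondrial and peroxisomal breakdown of fatty acids, were among the members. This group was noticed while reading the list of members and was drawn up afterwards, so its count is a description and carries no test. Of 28 symbols written down for the pathway, 3 did not match and 25 did. Of those 25, 11 (44%) had a downstream summit, with 12 sites in all, and 7 had an upstream one. Over all protein-coding genes, 3.29% had a downstream summit, while the share with an upstream one is not given here. The strongest was at yip2, the 3-ketoacyl-CoA thiolase gene, with a signal of 2586 at 179 bp and ranks of 458, 740 and 1223. Mtpalpha and Mtpbeta, the subunits of the mitochondrial trifunctional protein, had signals of 1206 and 1036, with a further Mtpalpha site of 561. Etf-QO had 1065 and the acyl-CoA dehydrogenase gene Acadvl 922. The carnitine palmitoyltransferase genes whd and CPT2 had 397 and 302. All 12 sites had an overlapping peak among the strongest of all 3 replicates, and they lay 25 to 396 bp downstream.

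Antioxidant enzymes were noticed in the same way, and 3 symbols of that list did not match. Of 14 genes, 5 (35.7%) had a downstream summit, beside 3.29% of all protein-coding genes, and 1 had an upstream one. For the upstream count, no share over all genes is given. The 5 were Cat (4635), the superoxide dismutase relative Rsod (923), the peroxiredoxin Prx4 (565), Sod1 (443) and the thioredoxin reductase Trxr1 (300). The first 4 were overlapped in all 3 replicates. Another strong site seen only on reading the list was that of grh, which encodes the epidermal transcription factor Grainy head, with a signal of 3095, a summit 227 bp downstream, 77.2% A or T and ranks of 470, 589 and 439.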
